A study of Mus musculus with 6 samples.

Results

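Sox9, Lhx2, Nfatc1, Tcf7l1, Tbx1, Foxc1, Foxc2, Runx1, Nfib and Vdr encode transcription factors of hair follicle bulge stem cells, and their expression was compared between transgenic and wild-type mice. A gene was taken when a feature of the array (a set of probes for 1 transcript) was annotated with exactly 1 gene symbol and that symbol was on the list. Where a gene has several such features, the brightest over all arrays is used. Each of the 10 genes had 1 feature, so 10 of 10 were found among 22180 genes tested. Hair follicle stem cells were sorted on CD34 and α6-integrin from mouse skin at postnatal day 49, and their RNA was measured on 6 Affymetrix Mouse Gene 2.0 ST arrays. TG mice carried the K14-sPLA2-IIA transgene, with 3 arrays, and wild-type (WT) mice did not, also with 3 arrays. K14 names the keratin 14 promoter, which drives expression in basal cells of the epidermis and in the outer root sheath, so the transgene is not limited to stem cells, and sPLA2-IIA is the secreted phospholipase encoded by Pla2g2a. The labels used here do not tell whether each array stands for a different mouse, so the p-values rest on a spread between arrays that may be technical.

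The bulge is the part of the outer root sheath where follicle stem cells rest between rounds of hair growth. A small set of transcription factors keeps these cells in the follicle lineage and holds them in quiescence, and others act when a new hair cycle starts. In mouse skin, SOX9, LHX2 and TCF7L1 are known for maintaining stem cell identity, NFATC1 and FOXC1 for quiescence, TBX1 for self-renewal, and RUNX1, NFIB and VDR for the hair cycle and for signalling to neighbouring cells.

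Values are log2 expression values as deposited, so a difference of 1 is a doubling if the log base is 2, which was read from the range of the values and is not stated in the sources used here. No background or detection value was used, and levels are not compared between genes. The targeted gene Pla2g2a read 12.61, 12.57 and 12.39 on TG arrays 1 to 3, against 6.77, 5.75 and 5.90 on WT arrays 1 to 3. Krt14 lay between 13.80 and 14.24, Krt15 between 13.21 and 13.50 and Itga6 between 10.005 and 10.49 on the 6 arrays, whereas the sorting marker Cd34 read 11.57, 9.65 and 12.42 in TG and 9.78, 9.89 and 13.07 in WT. The Cd34 values thus spread widely within each genotype. WT array 3 stood above the other WT arrays, and TG array 2 below the other TG arrays.

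None of the 10 genes passed the test for a difference between the genotypes. By limma across all genes, 0 of 10 had an adjusted p under 0.05, where 0.00451% of all genes did (Pla2g2a alone). At an unadjusted p under 0.05 there were 0 of 10, beside 2.77% of all genes, and the TG and WT arrays separated without overlap for 0 of 10, beside 7.2% of all genes. The adjusted p was 0.99996 for each of the 10 in limma. All 10 differences were nonetheless above 0, where 47.9% of all genes were, with a median of 0.36 beside -0.0075 over all genes. They ran from 0.04 for Vdr to 0.68 for Tcf7l1. For 9 of the 10 genes the 3 highest arrays were TG arrays 1 and 3 and WT array 3, so the 10 differences are not independent of each other. The 95% interval of each difference included 0.

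**Figure D1:**
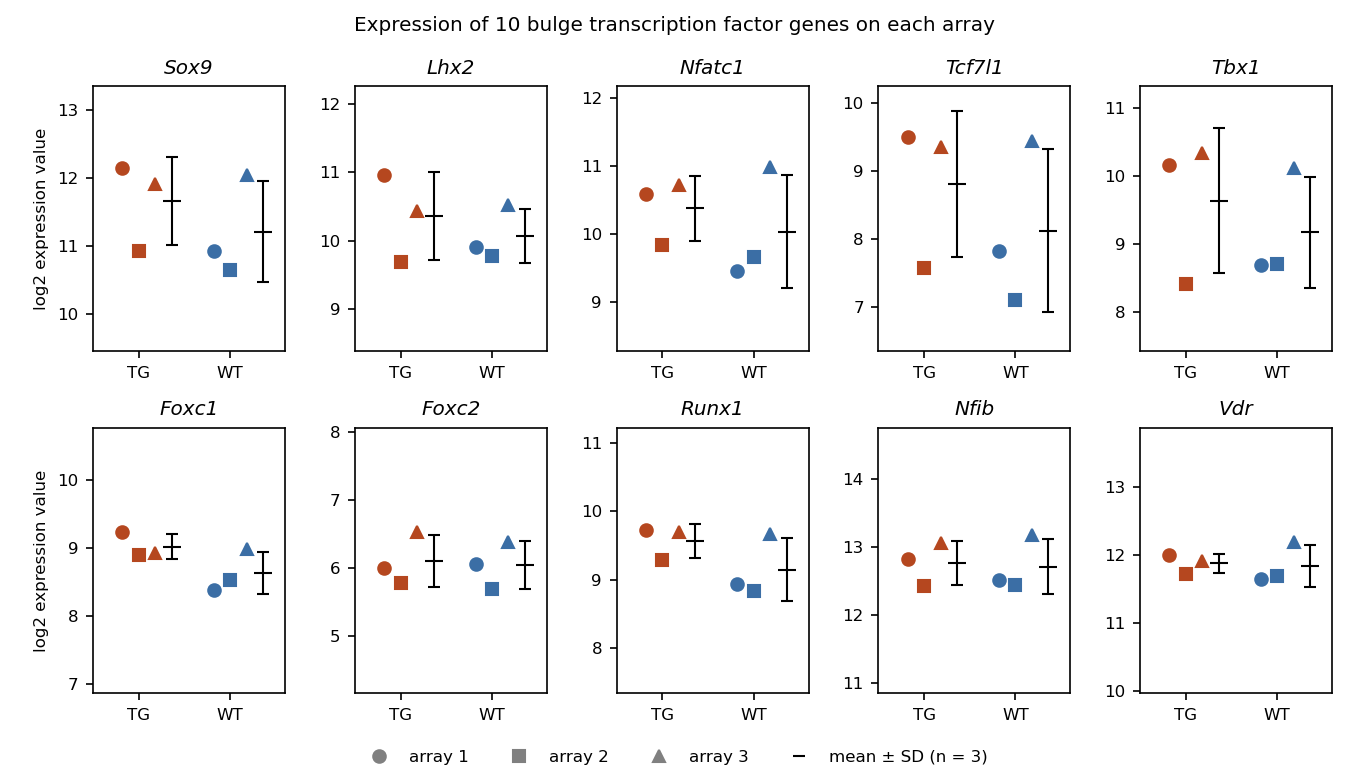
Log2 expression value (vertical axis, each panel spans the same range) of the 10 genes on the 3 TG arrays (left) and the 3 WT arrays (right), with symbols for the array number and the mean ± SD (n = 3) beside them. TG arrays 1 and 3 and WT array 3 sit at the top for 9 of the 10 genes, so both genotypes hold high and low arrays.

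Foxc1 and Runx1, which had the lowest unadjusted p-values of the 10 genes, and Tcf7l1, which varied most between arrays, are shown with the 250 bases before a transcription start from RefSeq, build GRCm38.p6, 5′ to 3′ on the gene's strand. RefSeq windows were matched for 6 of the 10 genes (9 windows). Capitals mark letters that match a motif linked to 1 of the 10 factors, on either strand. Foxc1 lies on the plus strand at chr13:31806396-31806645, and Runx1 (the first of its 2 windows, chr16:92826075-92826324) and Tcf7l1 (chr6:72789046-72789295) lie on the minus strand.
Foxc1: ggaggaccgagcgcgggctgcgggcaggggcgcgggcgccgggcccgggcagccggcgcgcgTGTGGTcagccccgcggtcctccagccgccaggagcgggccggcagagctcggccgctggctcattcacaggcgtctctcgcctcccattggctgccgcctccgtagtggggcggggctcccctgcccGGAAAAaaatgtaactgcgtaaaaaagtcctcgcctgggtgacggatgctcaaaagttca
Runx1: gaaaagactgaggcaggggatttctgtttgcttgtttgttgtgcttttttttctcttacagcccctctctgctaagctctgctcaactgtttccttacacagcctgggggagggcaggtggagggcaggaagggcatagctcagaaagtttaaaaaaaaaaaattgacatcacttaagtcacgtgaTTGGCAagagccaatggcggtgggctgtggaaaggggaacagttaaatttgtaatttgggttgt
Tcf7l1: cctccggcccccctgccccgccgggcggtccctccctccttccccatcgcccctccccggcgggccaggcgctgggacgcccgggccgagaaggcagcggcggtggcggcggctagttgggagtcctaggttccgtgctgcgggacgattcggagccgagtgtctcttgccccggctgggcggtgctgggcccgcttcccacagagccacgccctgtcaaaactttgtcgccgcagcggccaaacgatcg

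The Foxc1 window held TGTGGT, the letters of a RUNX motif, 188 bases before the start, and GGAAAA, those of an NFAT motif, 60 bases before it. TGTGGT was found in 1 of the 9 windows, beside 14% of all 32851 windows of this length, and GGAAAA in 2 of 9, beside 20.4%. The Runx1 window held TTGGCA, part of a nuclear factor I site, 64 bases before the start, which was in 1 of 9 windows, beside 12.3% of all. The Tcf7l1 window held none of the 9 motifs searched. Each motif was searched as 1 exact string on either strand, so variant forms of it were not counted. None of the 9 windows (6 genes) held CTTTGA (TCF/LEF), ACAATG (SOX) or GTAAACA (forkhead), found in 13.8%, 10.7% and 3.17% of all windows. The windows also lacked TAATTA (LIM homeobox), AGGTGTGA (T-box) and AGGTCA (part of a vitamin D receptor site), found in 4.84%, 1.12% and 14%. The searched motifs did not overlap in the windows shown. The median GC content of the 9 windows was 67.6%, beside 52.4% over all windows.

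SOX9 is an HMG-box factor that specifies and maintains the follicle stem cell lineage. Its gene read 12.16, 10.92 and 11.91 on TG arrays 1 to 3, against 10.93, 10.65 and 12.05 on WT arrays 1 to 3. TG arrays 1 and 3 and WT array 3 were high, the other arrays were low, and the genotypes overlapped. The means were 11.67 ± 0.65 in TG and 11.21 ± 0.74 in WT (SD, n = 3 each). The difference was 0.45 ± 0.45 (SE), with a 95% interval of -0.63 to 1.54.

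The LIM-homeodomain gene Lhx2, whose product maintains follicle stem cells in mice, read 10.96, 9.68 and 10.43 in TG and 9.90, 9.77 and 10.52 in WT. TG array 1 was the highest and TG array 2 the lowest of the 6, so the TG arrays enclosed the WT arrays. The difference was 0.29 ± 0.36 (SE), with an interval of -0.56 to 1.14. It was -0.0097 without TG array 1.

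Tcf7l1 encodes a TCF/LEF-family factor that binds Wnt-responsive genes and mostly represses them. It varied most, with 9.49, 7.57 and 9.34 on TG arrays 1 to 3, against 7.83, 7.10 and 9.44 on WT arrays 1 to 3. Each genotype held arrays on both sides of a wide gap between WT array 1 and TG array 3. The means were 8.80 ± 1.07 in TG and 8.12 ± 1.20 in WT (SD, n = 3 each). The difference was 0.68 ± 0.72 (SE), or 1.602-fold, and its interval reached from -1.05 to 2.41. Over the 6 arrays Tcf7l1 spanned 2.39, a wider range than that of 98.2% of all genes.

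NFATC1 is a calcium-regulated factor that keeps bulge cells out of the cell cycle in mice. Its gene read 10.59, 9.83 and 10.72 in TG, against 9.46, 9.66 and 10.99 in WT. WT array 3 was the highest and the other WT arrays were the lowest, so the WT values enclosed those of TG. The difference was 0.34 ± 0.44 (SE), with an interval of -0.71 to 1.397.

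TBX1 is a T-box factor that supports renewal of bulge cells in mice. Tbx1 read 10.17, 8.41 and 10.33 on TG arrays 1 to 3, against 8.69, 8.71 and 10.11 on WT arrays 1 to 3. TG array 2 was the lowest of all and TG array 3 the highest. The difference was 0.47 ± 0.61 (SE), with an interval of -0.98 to 1.92.

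FOXC1 is a forkhead factor that restrains activation of bulge stem cells in mice. Foxc1 read 9.24, 8.91 and 8.92 in TG, against 8.39, 8.54 and 8.98 in WT. All TG arrays lay above WT arrays 1 and 2, and WT array 3 lay within the TG range. The means were 9.02 ± 0.19 in TG and 8.64 ± 0.31 in WT (SD, n = 3 each). The difference of 0.39 ± 0.20 (SE) had an interval of -0.08 to 0.85. Its unadjusted p of 0.0903 was the lowest of the 10 genes in limma and ranked 1193 among all genes.

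Foxc2, a paralogue of Foxc1, is best known for its role in lymphatic vessels. It read 5.9996, 5.78 and 6.53 in TG, against 6.07, 5.69 and 6.38 in WT. The arrays numbered 3 were the highest and those numbered 2 the lowest in both genotypes. The difference was 0.06 ± 0.26 (SE), with an interval of -0.55 to 0.67.

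RUNX1 promotes the start of hair growth in mouse follicle stem cells and is also a blood-cell factor. Runx1 read 9.72, 9.28 and 9.70 on TG arrays 1 to 3, against 8.94, 8.83 and 9.67 on WT arrays 1 to 3. The TG arrays lay above WT arrays 1 and 2, while WT array 3 lay inside the TG range. The means were 9.57 ± 0.25 in TG and 9.15 ± 0.46 in WT (SD, n = 3 each). The difference was 0.42 ± 0.26 (SE), with an interval of -0.19 to 1.04. Runx1 was the 1 gene of the 10 that was higher in TG in each of the 3 same-numbered comparisons, by 0.79, 0.46 and 0.02, a pattern that 14.6% of all genes showed.

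NFIB is a nuclear factor I protein that, in mouse bulge cells, restrains a signal to neighbouring melanocyte stem cells. Nfib read 12.83, 12.42 and 13.05 in TG and 12.51, 12.44 and 13.17 in WT. The 2 arrays numbered 3 were the highest. The difference was 0.06 ± 0.26 (SE), with an interval of -0.55 to 0.67.

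VDR is the vitamin D receptor, without which mice fail to regrow hair after the first cycles. Vdr varied least, with 12.00, 11.72 and 11.92 in TG and 11.64, 11.69 and 12.19 in WT. The difference was 0.04 ± 0.19 (SE), with an interval of -0.41 to 0.48, or 0.75-fold to 1.398-fold. Exact two-sided permutation tests of the single genes gave p from 0.2 (Runx1) to 1.0 (Nfib), where 3 against 3 arrays cannot go below 0.1.

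**Figure D2:**
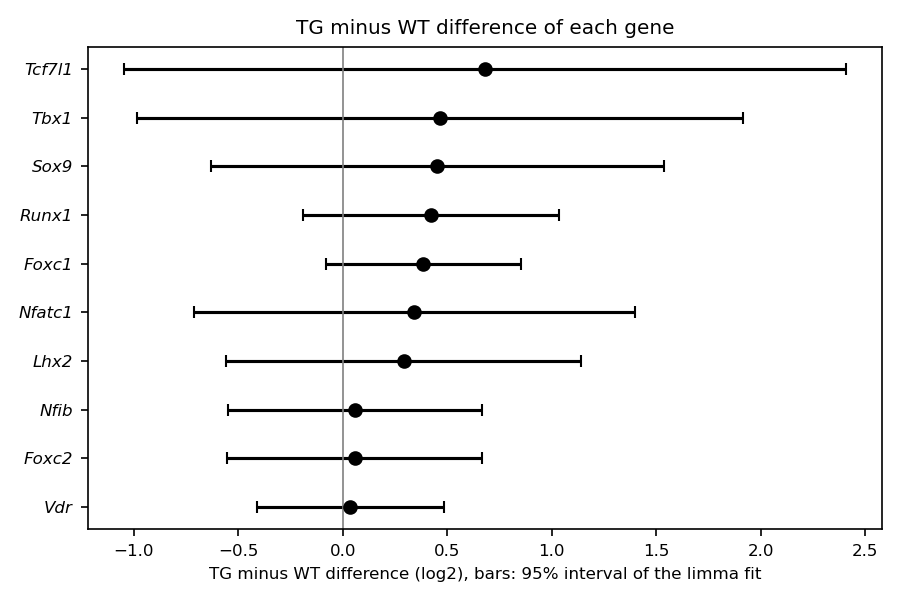
TG minus WT difference on the log2 scale (horizontal axis) of each of the 10 genes, with points for the limma estimate and bars for its 95% interval (3 TG and 3 WT arrays). Every interval includes 0, the narrowest being those of Vdr (-0.41 to 0.48) and Foxc1 (-0.08 to 0.85) and the widest that of Tcf7l1 (-1.05 to 2.41).

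For 8 of the 10 genes, all but Foxc1 and Runx1, the SD between arrays of the same genotype was larger than the genotype difference, as it was for 78.7% of all genes. This within-genotype residual SD had a median of 0.45 over the 10 genes, beside 0.23 over all genes. It was 1.14 for Tcf7l1, larger than for 98.7% of all genes, and 0.95 for Tbx1, larger than for 97.7%. Sox9 (0.70), Nfatc1 (0.68) and Lhx2 (0.54) lay above 94.8%, 94.5% and 90.4% of genes. Foxc1 (0.26) and Vdr (0.24) were near the middle, above 58.2% and 54.1% of genes.

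The order of the arrays was shared. TG arrays 1 and 3 and WT array 3 were the 3 highest for 9 of the 10 genes, beside 10.4% of all genes. The exception was Foxc2, where TG array 3, WT array 3 and WT array 1 led. This order was noticed in the values and is a description. The mean over the 10 genes was 10.32, 9.45 and 10.29 on TG arrays 1 to 3, against 9.44, 9.31 and 10.35 on WT arrays 1 to 3.

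The sorting marker Cd34 and the stem cell marker Lgr5 had the same 3 highest arrays. Of the list of 14 bulge markers described below, Postn, Dkk3, Fst, Gas1, Bmp6, Wif1, Sfrp1 and Fgf18 also had these 3 highest arrays. Itga6, Krt15, Inhbb and Col17a1 did not. For Itga6, the other sorting marker, TG arrays 1 and 3 and WT array 3 were the 3 lowest, within a range of 0.48. For Krt15, with a range of 0.29, the 3 highest were TG array 1, WT array 3 and WT array 2. Lgr5, a gene marking bulge and germ stem cells, read 9.18, 7.04 and 10.20 in TG and 7.21, 7.45 and 10.72 in WT. For both Cd34 and Lgr5, TG array 1 lay below both arrays numbered 3. For Sox9, Lhx2, Tcf7l1, Foxc1 and Runx1, TG array 1 was the highest of all 6.

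**Figure D3:**
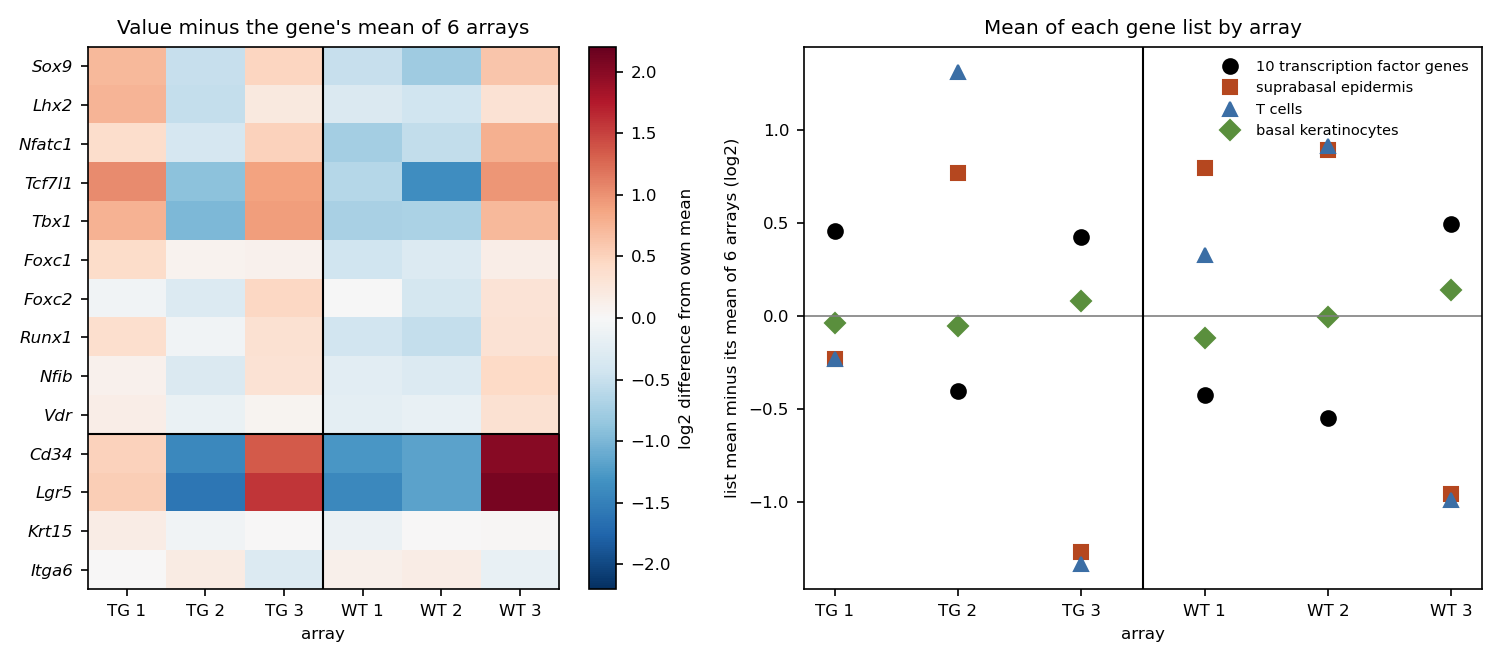
Left, each gene's log2 value minus its own mean of 6 arrays (colour) for the 10 transcription factor genes and, under the line, Cd34, Lgr5, Krt15 and Itga6, with TG arrays left of WT arrays. Right, the mean log2 value of each gene list minus its mean of 6 arrays: the 10 genes were high on TG arrays 1 and 3 and WT array 3 (10.32, 10.29 and 10.35), where the suprabasal and T-cell lists were low.

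Within each genotype, array 3 was above the mean of arrays 1 and 2 for 9 of the 10 genes in both genotypes, beside 31.4% of all genes. Foxc1 was the exception, at -0.15 in TG and 0.52 in WT. The excess on array 3 had a median of 0.40 in TG and 0.74 in WT over the 10 genes, beside -0.06 and -0.07 over all genes. It was largest for Tcf7l1 in WT (1.97) and for Tbx1 in TG (1.04).

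Of the marker lists of other cells, those of suprabasal epidermis and T cells were low on the arrays where the 10 genes were high. The mean of the Langerhans cell and macrophage list was also lowest on those arrays, by less. The endothelial list was high on the arrays numbered 3. The mean of 8 of 8 listed suprabasal epidermis genes (Krt1, Krt10, Lor, Ivl, Flg, Flg2, Sbsn and Krtdap) was 10.82, 11.82 and 9.78 on TG arrays 1 to 3, against 11.85, 11.95 and 10.10 on WT arrays 1 to 3. The mean of 6 of 6 T-cell genes (Cd3e, Cd3d, Cd3g, Cd2, Ptprc and Il2rb) was 7.79, 9.34 and 6.69 in TG, against 8.35, 8.94 and 7.03 in WT. In both lists the values were lowest on the arrays numbered 3, next lowest on TG array 1, and array 3 was below the mean of the other arrays of its genotype for every member. The mean of the basal keratinocyte list, measured in 6 of its 7 genes, moved less, from 11.13 to 11.27 in TG and 11.07 to 11.33 in WT. Its genes moved in opposite directions, 3 being higher and 3 lower on array 3 in both genotypes. The melanocyte list (8 of 8 genes) ran from 6.90 to 7.34 in TG and 6.68 to 7.52 in WT. The Langerhans cell and macrophage list (6 of 7 genes) averaged 7.41, 7.97 and 7.22 in TG and 7.82, 7.74 and 7.48 in WT. Of its 6 genes, 3 were lower on array 3 in both genotypes and 2 were higher. The endothelial list (7 genes) was highest on the arrays numbered 3, with 6.15 in TG and 6.01 in WT, and lay between 5.43 and 5.60 on the other 4 arrays. The fibroblast list (6 genes) ran from 6.07 to 6.45 in TG and 5.81 to 6.09 in WT, the upper follicle list (4 genes) from 10.23 to 10.81 in TG and 10.17 to 10.49 in WT, and the hair shaft and root sheath list (7 genes) from 6.38 to 6.84 in TG and 6.26 to 7.39 in WT. The scale has no true 0 and no detection call was used. The part of other cells in the transcription factor values was not tested. In bulk RNA, fewer stem cells and less RNA per stem cell cannot be told apart.

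Arrays with the same number correlated in their deviations from the genotype means, but so did some arrays with different numbers. The genotype difference depended on which number was compared. Between the arrays numbered 1, TG was above WT for 9 of the 10 genes, beside 45.5% of all genes, with a median of 0.96. The difference was at least 1 for 5 of the 10, beside 1.9% of all genes. It was 1.67 for Tcf7l1, 1.48 for Tbx1, 1.23 for Sox9, 1.13 for Nfatc1 and 1.06 for Lhx2. Foxc2, at -0.066, was the exception.

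Between the arrays numbered 2, the median was 0.13, and TG was above WT for 7 of the 10 genes, beside 49.9% of all genes. Runx1 and Tcf7l1 had the largest differences there (0.46 and 0.47), and Tbx1 was at -0.30. Between the arrays numbered 3, the median was -0.09, and TG was below WT for 7 of the 10 genes, beside 49.3% of all genes. Nfatc1 and Vdr were at -0.28 there, and Tbx1 was at 0.22.

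**Figure D4:**
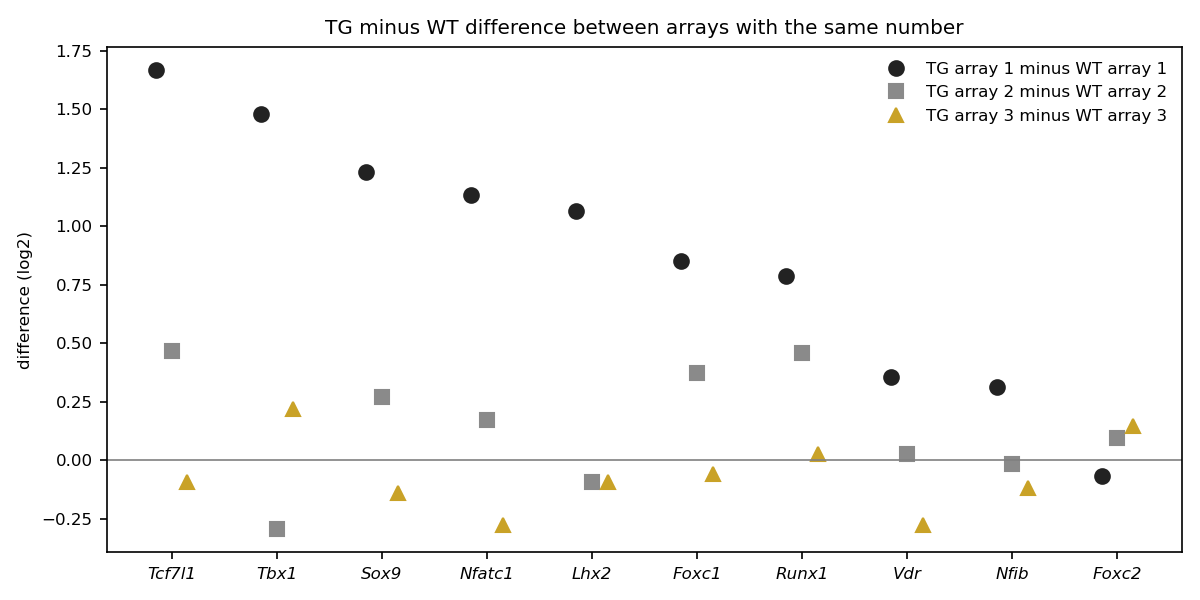
TG minus WT difference (log2, vertical axis) between arrays with the same number for each of the 10 genes, with a symbol for each number and no error, since each point is 1 array against 1 array. The arrays numbered 1 give 0.31 to 1.67 for all genes but Foxc2, while those numbered 3 give -0.28 to 0.22.

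The genotype differences moved when arrays were left out. With both arrays numbered 1 left out, an alternative chosen after seeing the data, the difference was 0.19 for Tcf7l1, 0.07 for Sox9, -0.052 for Nfatc1 and -0.039 for Tbx1. With both arrays numbered 3 left out, it was 1.07 for Tcf7l1, 0.75 for Sox9, 0.65 for Nfatc1, 0.62 for Runx1 and 0.61 for Foxc1. In the same fit it was 0.59 for Tbx1, 0.48 for Lhx2, 0.19 for Vdr, 0.15 for Nfib and 0.013 for Foxc2. In that fit 2 of the 10 genes (Foxc1 and Runx1) had an unadjusted p under 0.05, beside 5.92% of all genes. The genotypes then did not overlap for 4 of the 10 (Nfatc1, Foxc1, Runx1 and Vdr), beside 37.7% of all genes. Without WT array 3 alone, 3 genes (Nfatc1, Foxc1 and Runx1) had an unadjusted p under 0.05, beside 4.79% of all genes, and the same 4 did not overlap, beside 23.2%. Without TG array 2, and also without both arrays numbered 2, Tbx1 and Runx1 did not overlap, beside 15.8% and 22.7% of all genes.

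With array weights, which gave TG array 1 the largest weight (4.23) and the arrays numbered 3 the smallest (0.33 in TG and 0.29 in WT), 7 of the 10 genes had an unadjusted p under 0.05, beside 14.1% of all genes. These were Sox9, Lhx2, Nfatc1, Tcf7l1, Tbx1, Foxc1 and Runx1, and the lowest adjusted p in limma was 0.242 (Foxc1). With the replicate number as a block, 1 gene (Runx1) did, beside 8.45% of all genes, at an adjusted p of 0.587 in limma. In none of the fits run did any of the 10 genes pass the adjusted threshold.

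Likeness was measured as the root mean square difference between profiles over the 6 arrays, each centred on its own mean, for the 5 genes that spanned at least 1 log2 unit. Nearest to Sox9 were Hmga2-ps1, a pseudogene, at 0.08, and Dapk2, a calcium-regulated kinase gene, at 0.10. Sox9 itself departed from a flat profile by 0.61. Nearest to Lhx2 (0.46 from flat) were Myof, a membrane repair gene, at 0.08 and Hectd2 at 0.09. Nearest to Nfatc1 (0.58 from flat) were Slc29a1, a nucleoside transporter gene, and Paqr6, both at 0.08. Nearest to Tcf7l1 (0.99 from flat) were Farp1 at 0.15 and the ion channel gene Trpv4 at 0.17, and nearest to Tbx1 (0.81 from flat) were the matrix gene Npnt at 0.13 and Kirrel at 0.14. Among the 10 genes themselves, whatever their range, Foxc1 and Runx1 were nearest to each other (0.17), as were Sox9 and Nfatc1 (0.21) and Foxc2 and Nfib (0.14). Foxc1, Runx1, Foxc2 and Nfib were themselves only 0.28, 0.37, 0.30 and 0.30 from flat. Among all genes, Runx1 ranked 204 in nearness to Foxc1, Nfatc1 57 to Sox9 and Nfib 517 to Foxc2. These distances are descriptions over 6 arrays.

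Other genes tied to these factors were taken from 4 lists. None of their members passed the adjusted threshold in either direction. Of 14 bulge markers, 11 differences were above 0, with a median of 0.20 and a range of -0.14 to 0.57. At an unadjusted p under 0.05 there were 0 higher, beside 1.93% of all genes, and 0 lower, beside 0.843%. The genotypes did not overlap for 1 of 14 as higher (Inhbb), beside 3.99% of all genes. Inhbb, an activin subunit gene that depends on SOX9 in mouse bulge cells, read 7.55, 7.51 and 7.95 in TG, against 7.25, 6.99 and 7.47 in WT. Its difference was 0.43 ± 0.19 (SE), with an interval of -0.02 to 0.88. The activin antagonist gene Fst, the Wnt inhibitor gene Wif1 and the Wnt modulator gene Sfrp1 differed by 0.49 ± 0.53, 0.57 ± 0.66 and 0.43 ± 0.69 (SE).

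Of 13 genes described as targets or dependents of the 10 factors, 9 differences were above 0, with a median of 0.09. Cdk4, the cell cycle kinase gene that NFATC1 represses in mouse bulge cells, read 11.81, 11.49 and 11.57 in TG, against 11.30, 11.49 and 11.06 in WT, a difference of 0.34 ± 0.17 (SE). Edn2, the endothelin gene that NFIB represses there, differed by 0.27 ± 0.21. Axin2, a feedback target of Wnt signalling, differed by -0.27 ± 0.22. In this list 0 of 13 had an unadjusted p under 0.05 in either direction, beside 2.77% of all genes.

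Of 27 partners and relatives of the factors 24 were measured, 12 with a difference above 0 and a median of 0.03, and 0 had an unadjusted p under 0.05, beside 2.77% of all genes. The genotypes did not overlap for 2 of 24 as higher (Cbfb and Ppp3cb), beside 3.99% of all genes. Cbfb, encoding the shared partner of RUNX proteins, read 8.61, 8.59 and 9.21 in TG, against 8.52, 8.49 and 8.03 in WT. Its difference was 0.46 ± 0.23 (SE), and between same-numbered arrays it was 0.09, 0.10 and 1.18 for numbers 1, 2 and 3. Ppp3cb, a catalytic subunit of calcineurin, which activates NFAT proteins, differed by 0.24 ± 0.13. Nfia and Sox4, relatives of Nfib and Sox9, differed by -0.21 ± 0.13 and 0.48 ± 0.34. For Sox4 the difference was 0.16, 0.05 and 1.23 between arrays numbered 1, 2 and 3.

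Of 20 other epithelial transcription factor genes, 7 differences were above 0, with a median of -0.06. Dlx3, a homeobox gene of hair and epidermal differentiation, was the 1 gene of 20 at an unadjusted p under 0.05, lower in TG, beside 0.843% of all genes. The genotypes did not overlap for it either (1 of 20 as lower, beside 3.21% of all genes). It read 8.65, 8.82 and 8.34 in TG, against 9.24, 8.85 and 9.23 in WT, a difference of -0.50 ± 0.18 (SE). Its adjusted p was 0.99996 in limma. Barx2, a homeobox gene of the follicle, differed by 0.76 ± 0.38, Hopx by 0.33 ± 0.19 and the hair shaft factor gene Hoxc13 by 0.38 ± 0.27.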

How the data were processed

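RNA of sorted hair follicle stem cells was measured on 6 Affymetrix arrays, 3 TG and 3 WT, grouped by the sample titles. The authors deposited 1 log2 expression value per array and feature. The log scale was read from the values (2.85 to 14.42), and how probes were summarised and arrays scaled, and on which genome build, is not given in the sources used here. Transcriptome Analysis Console and Affymetrix Expression Console (1.4.1) are listed, per the submitters' processing notes. Scaling by the authors could shrink a shift shared by most genes. Array medians lay between 5.90 and 5.99, and the number of arrays limits the precision.

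Of 41345 features, 23521 had 1 gene symbol in the platform annotation, 1814 had several and 16010 had none. Symbols were checked by Entrez ID against RefSeq (GRCm38.p6, 23328 matched, 0 changed). The brightest feature per gene over 6 arrays gave 22180 genes, with no filter. TG minus WT was fitted over all of them with limma 3.58.1 in R 4.3.3 (lmFit, eBayes, two-sided), with Benjamini-Hochberg adjustment, a threshold of 0.05 and 95% intervals. Single genes had exact permutation tests. The fit was tested on simulated data.

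The genes, lists, motifs and alternatives were chosen with earlier results of these data known. All 10 genes are named. Of each list up to 4 genes with the lowest p are named, of the likeness measure the nearest 2 genes (predicted genes, clone names and small RNAs left out), and Pla2g2a, Cd34, Itga6, Krt14 and Krt15 as checks. Lgr5, in the bulge list, was named after its values were seen, as were the genes of that list named for their highest arrays.

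Arrays are numbered 1 to 3 in each genotype. As a check of pairing, each array's deviation from its genotype mean was correlated across genes with that of its counterpart, giving 0.20, 0.67 and 0.74 for numbers 1, 2 and 3 (genes are not independent replicates). Each exceeded the limit of 0.1, so the numbers were taken as pairs in an alternative fit, from this check alone. Arrays with different numbers exceeded the limit too. The correlation of WT array 1 was higher with TG array 2, at 0.50, and TG array 1 correlated with WT array 2 at 0.17. The check therefore cannot tell which of the arrays numbered 1 and 2 belong together. Other alternatives were quantile normalization, the mean of a gene's features, genes above the median level, array weights, and arrays left out singly or by number.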

Additional observations from a re-analysis of the deposited data

How the results depend on the processing

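The 10 genes gave 139 values under the alternatives, of which 0 passed the adjusted threshold and 15 changed sign. With both arrays numbered 1 left out, Lhx2 was at -0.093, Nfatc1 at -0.052, Tbx1 at -0.039, Nfib at -0.068 and Vdr at -0.12. With quantile normalization Vdr was at -0.0071. With 1 array left out, Lhx2 ran from -0.0097 to 0.63, Foxc2 from -0.16 to 0.23, Nfib from -0.084 to 0.29, Vdr from -0.064 to 0.21, Sox9 from 0.17 to 0.87, Nfatc1 from 0.053 to 0.82, Tcf7l1 from 0.17 to 1.34, Tbx1 from 0.12 to 1.08, Foxc1 from 0.26 to 0.56 and Runx1 from 0.26 to 0.69. The highest value of each gene came without WT array 3, except for Tbx1 and Lhx2, where it came without TG array 2. The causes were not tested.

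On all arrays 0 of the 10 genes had an unadjusted p under 0.05, beside 2.77% of all genes. There was 1 with the replicate number as a block (beside 8.45%), 7 with array weights (14.1%) and 2 without both arrays numbered 3 (5.92%). With 1 array left out there were 0 to 3, the 3 coming without WT array 3 (4.79%). The blocked fit changed no call. The genotypes did not overlap for 0 of the 10 on all arrays, beside 7.2% of all genes. The count was 4 without both arrays numbered 3 (beside 37.7%) and 2 without both numbered 2 (22.7%). With 1 array left out it was 0 to 4, the 4 coming without WT array 3 (23.2%). Over all genes, 1 passed the adjusted threshold on all arrays, 0 without both arrays numbered 3 or numbered 2, and 0 to 1 with 1 array left out (0 without TG array 1). The mean of features gave identical values for the 10 genes, each having 1 feature, and Foxc2 was below the median level. The fits without both arrays numbered 1 or 2 were chosen after seeing the data. With 2 arrays per genotype left, they have few degrees of freedom.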

Other observations

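Of the 20 other epithelial factor genes, 13 were lower on array 3 than on the mean of arrays 1 and 2 in both genotypes, beside 43.9% of all genes. Grhl3, a barrier-forming factor gene chosen after its values were seen, read 9.36, 10.62 and 7.10 on TG arrays 1 to 3, against 10.91, 10.92 and 8.17 on WT arrays 1 to 3. Its TG minus WT difference was -0.97 ± 1.07 (SE), with an interval of -3.53 to 1.58. Grhl3 was lower on TG than on WT for each array number, a pattern that 16.5% of all genes showed. The nuclear factor I gene Nfix, chosen in the same way, differed by -0.0030 between the genotypes, and by 0.0013, 0.0003 and -0.01 between arrays numbered 1, 2 and 3.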
